A study of Mus musculus with 3 samples.

Results

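The interferon regulatory factors (IRFs) were described in mouse bone marrow-derived macrophages (BMDMs) of strain C57BL/6J after 20 h with 1 of 3 stimuli. The members were 8 genes, Irf1, Irf2, Irf3, Irf4, Irf5, Irf7, Irf8, and Irf9, chosen by name among the 34821 gene names on the array and carried by 9 probes. BMDMs were grown from bone marrow for 4 to 6 days with M-CSF and treated with CpG, a DNA ligand of TLR9, with IFN-g+IL-10RB, which is interferon-gamma together with a blocker of the IL-10 receptor, or with all of these agents, called Triple. Each condition had 1 array, and no unstimulated array was analysed here, so induction over rest was not measured. Interferon-gamma and the blocker were only given together, so their parts cannot be told apart. CpG and IFN-g+IL-10RB share no agent. No difference between arrays has a replicate check, and no p-value is given.

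IRFs are transcription factors that share a DNA-binding domain and recognise GAAA repeats in the promoters of interferon-stimulated and inflammatory genes. Interferon-gamma acts through its receptor and JAK kinases on the gamma-activated sequence (GAS) of its target genes, Irf1 and Irf8 among them. Type I interferons act through ISGF3, a complex that contains IRF9. IRF3 and IRF7 are activated by phosphorylation downstream of nucleic acid sensors and drive type I interferon genes, and IRF5 acts downstream of TLRs on inflammatory cytokine genes.

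The processed signal, an intensity after background subtraction, lay well above background, by the scanner software's own mark, for 46.0% of 59305 spots with CpG, 44.8% with IFN-g+IL-10RB, and 44.4% in Triple. Folds were taken between log2 signals scaled by the 75th percentile of each array, so they differ slightly from the ratios of the processed signals. Replicate spots of probes well above background had a pooled SD of 0.09 (log2) within an array, so the technical SD of a log2 fold was 0.13 where each array gave 1 spot. Differences between cultures are not part of it. Every member probe had a single spot. A gene was called higher or lower if it differed more than 2-fold and was well above background in the brighter array. The filter on outlier spots left 7 of the 8 members. It removed Irf5, whose spot was marked on all 3 arrays for its local background and not for the spot itself. Values of Irf5 are therefore given with outlier spots kept and are in no count of members called higher or lower.

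All 9 macrophage markers measured were well above background on each array. Their summed signal was 769739 with CpG, 733252 with IFN-g+IL-10RB, and 714707 in Triple. Csf1r, the M-CSF receptor, was the brightest of them with CpG and with IFN-g+IL-10RB, and Aif1 in Triple. Sums and orders over different probes describe signal here and below, and not amounts of RNA. Of 6 dendritic cell markers, 1 was well above background with CpG, 3 with IFN-g+IL-10RB, and 4 in Triple, with summed signals of 36131, 38012, and 30101. Siglech gave nearly all of that signal, and Flt3 and Cd209a were not well above background on any array. Of 6 neutrophil markers, 5, 4, and 4 were well above background, with sums of 3838, 9437, and 4867. The brightest was Elane with CpG and Ly6g on the other arrays, and Mpo was not well above background on any. Of 4 T cell markers, 2 were well above background on each array, led by Cd3e, with sums of 965, 1050, and 968, while Cd3g and Cd8a were not. Of 4 fibroblast markers, 3, 2, and 3 were well above background, led by Col1a2, with sums of 539, 326, and 481, and Pdgfra was not on any array. Of 2 mast cell markers measured, Kit was well above background with CpG and in Triple, and the sums were 103, 13.8, and 55.0. The part of other cells in the members' values was not tested, and fewer cells of a type and less RNA per cell cannot be told apart.

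Irf1, Irf2, and Irf8 were lower with CpG than with IFN-g+IL-10RB, and Irf1 and Irf8 were higher in Triple than with CpG. In CpG over IFN-g+IL-10RB, 3 of 7 members were called lower, compared with 5.84% of all genes tested, and 0 were called higher, compared with 5.06%. In Triple over CpG, 2 of 6 members well above background on either array, Irf1 and Irf8, were called higher, compared with 7.47% of all genes, and 0 lower, compared with 8.34%. In Triple over IFN-g+IL-10RB, 0 of 7 members were called in either direction, compared with 6.57% of all genes called higher and 9.31% called lower. Under spike-in scaling, relative to Actb, and with dim signals used as they were, Irf4 was called lower there. Each pair of these comparisons shares an array, so an error in that array enters both.

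**Figure D1:**
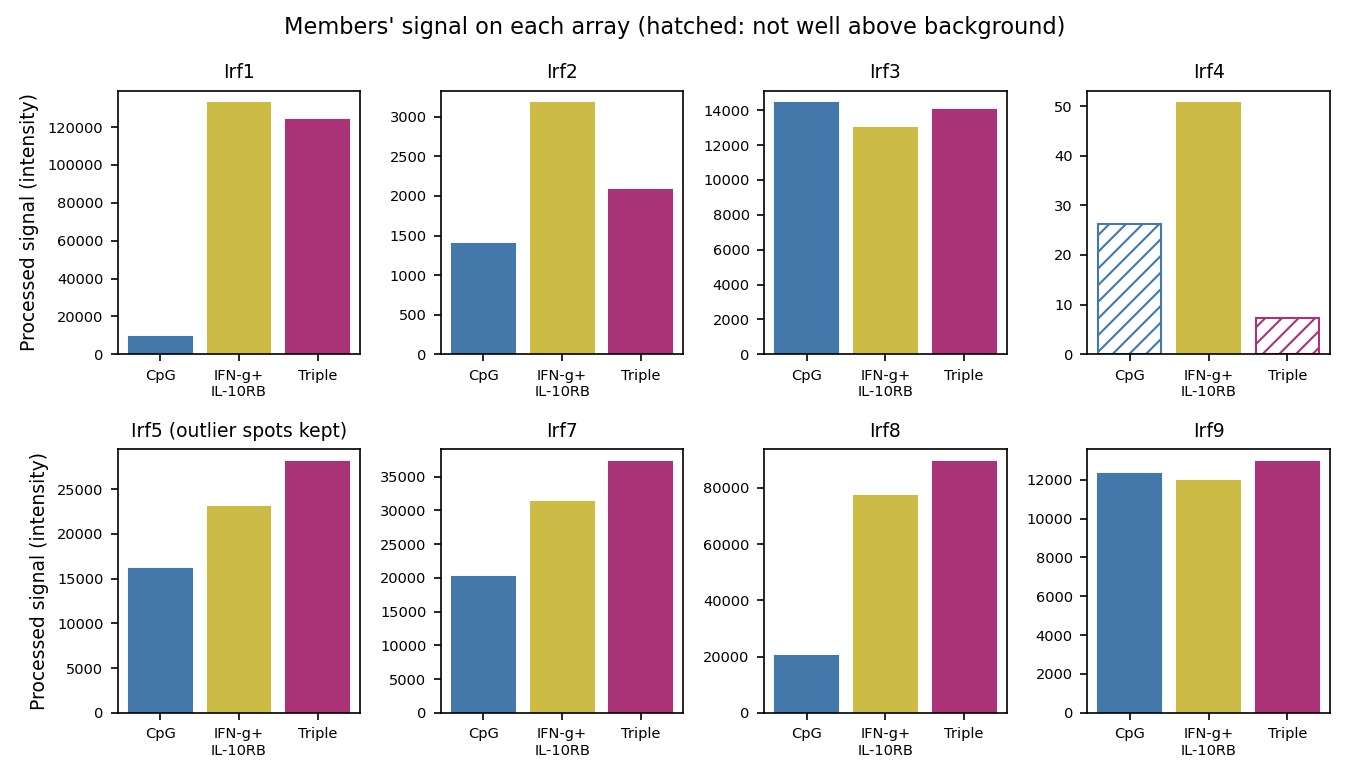
Processed signal (intensity) of each member on the 3 arrays, 1 panel per gene with its own axis from 0; hatched bars were not well above background and Irf5 is shown with outlier spots kept. Irf1 was 9196 with CpG, 132675 with IFN-g+IL-10RB, and 123964 in Triple, while Irf3 and Irf9 were similar on all 3.

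Irf1 is an activator induced by interferon-gamma that acts on antigen presentation, nitric oxide, and interleukin genes. Its probe (NM_008390, chromosome 11 from 53590746 to 53590805 in the mm9 annotation of the array) gave 9196 with CpG, 132675 with IFN-g+IL-10RB, and 123964 in Triple as processed signal. The CpG array was thus the low one, and the others were close to each other. The signal was 14.7-fold lower with CpG than with IFN-g+IL-10RB (log2 fold −3.88) and 14.0-fold higher in Triple than with CpG (log2 fold 3.81). Among genes well above background on both arrays, Irf1 had rank 46 from the lowest of 16430 folds of CpG over IFN-g+IL-10RB, and rank 53 from the highest of 16276 folds of Triple over CpG. Triple over IFN-g+IL-10RB gave a log2 fold of −0.07, under the technical SD, and its sign turned with the 75th percentile over all probes, in the authors' table, and with the mean of all probes. The other Irf1 probe (NM_001159393, chromosome 11 from 53591817 to 53591876) was dim, with 8.2 with CpG, not well above background, 191 with IFN-g+IL-10RB, and 252 in Triple. Where a signal was not well above background, it was raised to the lowest signal well above background on that array unless it already exceeded that, so the fold is at least the value given. This probe was at least 8.19-fold lower with CpG than with IFN-g+IL-10RB and at least 11.0-fold higher in Triple than with CpG, the same directions as the brighter probe. Its log2 fold of Triple over IFN-g+IL-10RB was 0.43, or 3.35 technical SD, opposite in sign to that of the brighter probe.

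Irf8 acts in the macrophage and dendritic cell lineages, and with PU.1 and IRF1 on inflammatory genes. Its probe (NM_008320, chromosome 8 from 123280324 to 123280383) had signals of 20183 with CpG, 77123 with IFN-g+IL-10RB, and 89361 in Triple. The order of the arrays had CpG lowest, as for Irf1. It was 3.89-fold lower with CpG than with IFN-g+IL-10RB (log2 fold −1.96, rank 233 from the lowest) and 4.60-fold higher in Triple than with CpG (log2 fold 2.20, rank 245 from the highest). Triple over IFN-g+IL-10RB gave 0.24, which is 1.91 technical SD.

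Irf2 competes with IRF1 for the same sites and was named as its antagonist. Its probe (NM_008391, chromosome 8 from 47932486 to 47932545) gave 1394 with CpG, 3174 with IFN-g+IL-10RB, and 2072 in Triple. Its signal in Triple lay between those of the other arrays. It was 2.32-fold lower with CpG than with IFN-g+IL-10RB (log2 fold −1.21), and the other log2 folds were 0.63 for Triple over CpG and −0.58 for Triple over IFN-g+IL-10RB, neither past 2-fold.

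**Figure D2:**
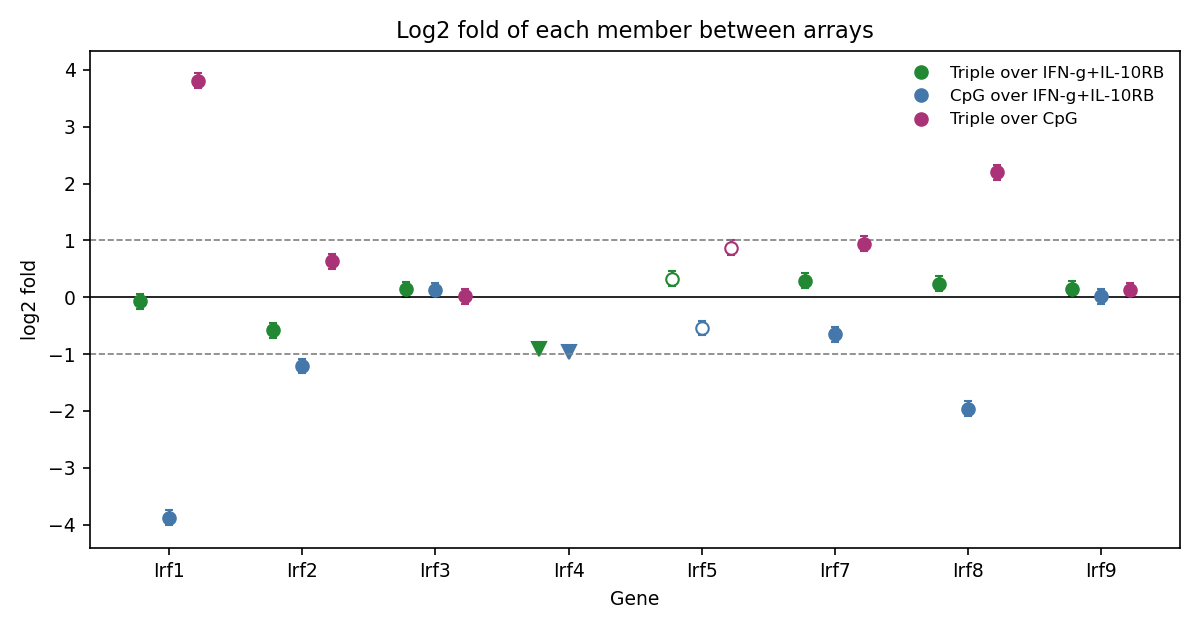
Log2 fold of each member in the 3 comparisons, with bars of 1 technical SD (0.13) and dashed lines at 2-fold; triangles are bounds, open points are Irf5 with outlier spots kept, and Irf4 has no point in Triple over CpG. Irf1 and Irf8 lie past 2-fold on either side in the comparisons that involve CpG, and no member does in Triple over IFN-g+IL-10RB with this scaling and filter.

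Irf7 and Irf5 act downstream of nucleic acid sensors and TLRs. Irf7, a driver of type I interferon genes that is itself induced by interferon, had signals of 20185 with CpG, 31210 with IFN-g+IL-10RB, and 37258 in Triple (NM_016850, chromosome 7 from 148450664 to 148451014). Its log2 folds were −0.65 for CpG over IFN-g+IL-10RB, 0.29 for Triple over IFN-g+IL-10RB, and 0.94 for Triple over CpG, so it stayed just inside 2-fold. With the 75th percentile over all probes, with median scaling, and in the authors' table the last value was 1.00, 1.01, and 1.00, past 2-fold. Irf5 (NM_012057, chromosome 6 from 29486901 to 29486960) had signals of 16049 with CpG, 22983 with IFN-g+IL-10RB, and 28095 in Triple. Its log2 folds were −0.54, 0.33, and 0.87 in the same order of comparisons, and it was in the same order of arrays as Irf7.

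Irf3, which is activated from a pool already present in the cell, had 14410 with CpG, 12953 with IFN-g+IL-10RB, and 14010 in Triple (NM_016849, chromosome 7 from 52257700 to 52257759). Irf9, the DNA-binding subunit of ISGF3, had 12297, 11946, and 12936 in that order (NM_001159417, chromosome 14 from 56228806 to 56228865). The log2 folds of Irf3 were 0.13 for CpG over IFN-g+IL-10RB, 0.14 for Triple over IFN-g+IL-10RB, and 0.02 for Triple over CpG, and those of Irf9 were 0.02, 0.15, and 0.13. All of these were at most 1.15 technical SD under the scaling used, while in Triple over IFN-g+IL-10RB both genes reached 0.25 in the authors' table and 0.26 when every probe entered the 75th percentile. The sign turned for Irf9 in CpG over IFN-g+IL-10RB with median, spike-in, and Actb scaling, and for Irf3 in Triple over CpG with quantile, spike-in, Actb, and no scaling.

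Irf4 acts in lymphocytes and in alternatively activated macrophages. Its probe (NM_013674, chromosome 13 from 30858532 to 30858591) was well above background only with IFN-g+IL-10RB, at 50.6, and gave 26.3 with CpG and 7.23 in Triple. It was at least 1.96-fold lower with CpG and at least 1.88-fold lower in Triple than with IFN-g+IL-10RB, so neither bound reached 2-fold, and no fold of Triple over CpG is given. With median and spike-in scaling its log2 fold of CpG over IFN-g+IL-10RB was −1.03 and −1.01, past 2-fold, which made 4 members called lower there, and with normexp it was −0.29. Replicate spots of probes not well above background gave a technical SD of 0.56 for a log2 fold. With dim signals used as they were, the log2 fold of Triple over IFN-g+IL-10RB was −2.78.

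Relatives outside the members were compared with them. Irf2bp1, Irf2bp2, and Irf2bpl encode proteins named for binding IRF2. Irf2bp1 had 780 with CpG, 763 with IFN-g+IL-10RB, and 815 in Triple. Irf2bp2 had 14165, 11771, and 7353, and its log2 fold of Triple over CpG was −0.89, while its other probe gave −1.17, past 2-fold. Irf2bpl had 5157, 7092, and 3355, and its log2 fold of Triple over IFN-g+IL-10RB was −1.05, while its other probe gave −0.85, inside 2-fold. The probes of a gene thus lay on different sides of the threshold for both of these.

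The promoters of all 8 members were searched, and those of Irf1, Irf2, and Irf8 are printed because these members were lower together with CpG. RefSeq starts (GRCm38.p6) were found for all 8 members, 1 for each of 5 genes and 2 for each of 3. In the 250 bases before to 50 bases after each start, both strands were searched for the IRF element (GAAANNGAAA), the GAS element (TTCNNNGAA), and the kappa B consensus. Over 32851 promoters in the table, 3.44% held the IRF element, 8.30% the GAS element, and 8.46% the kappa B consensus. Among the members, Irf1, Irf2, and Irf8 held a GAS match, Irf2 an IRF match, and Irf1 and Irf2 a kappa B match. The shares are per promoter and the members are named by gene. The other starts of Irf1 and Irf8 held no match. No matches overlapped. A match is a description of these letters, and binding was not tested. The 250 bases before the start are given with all matches in capitals.

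Irf1 (chr11:53769764-53770013, plus strand) has a GAS match from −90 to −82 and a kappa B match from −13 to −4.
Irf1: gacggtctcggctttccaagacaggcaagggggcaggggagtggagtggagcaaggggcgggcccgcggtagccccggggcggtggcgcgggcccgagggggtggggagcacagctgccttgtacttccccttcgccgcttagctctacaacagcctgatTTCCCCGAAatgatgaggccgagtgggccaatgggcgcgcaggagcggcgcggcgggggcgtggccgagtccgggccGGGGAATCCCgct
Irf2 (chr8:46739495-46739744, plus strand) has an IRF match from −241 to −232, a GAS match from −224 to −216, and a kappa B match from −17 to −8.
Irf2: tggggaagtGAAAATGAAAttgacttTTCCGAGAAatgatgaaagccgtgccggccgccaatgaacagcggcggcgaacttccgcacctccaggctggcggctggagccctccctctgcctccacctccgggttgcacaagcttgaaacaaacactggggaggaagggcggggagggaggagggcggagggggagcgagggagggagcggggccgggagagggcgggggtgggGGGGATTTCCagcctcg
Irf8 (chr8:120736108-120736357, plus strand) has GAS matches from −171 to −163 and from −153 to −145.
Irf8: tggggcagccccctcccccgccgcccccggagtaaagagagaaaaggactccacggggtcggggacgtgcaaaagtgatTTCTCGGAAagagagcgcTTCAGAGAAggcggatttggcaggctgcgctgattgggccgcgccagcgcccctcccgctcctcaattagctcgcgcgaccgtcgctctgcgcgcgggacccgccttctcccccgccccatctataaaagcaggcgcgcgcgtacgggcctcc

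**Figure D3:**
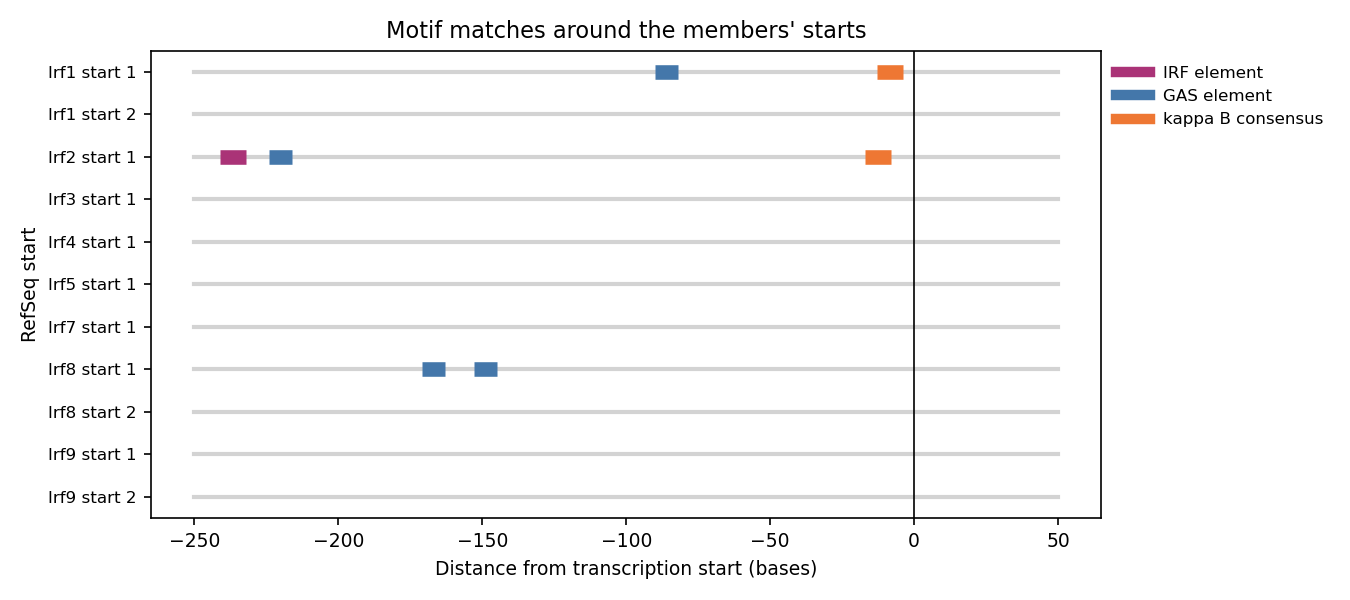
Matches of the IRF element, the GAS element, and the kappa B consensus around the 11 RefSeq starts of the members, by distance from the start in bases; grey lines are the stretch searched. The starts of Irf3, Irf4, Irf5, Irf7, and Irf9, and the other starts of Irf1 and Irf8, held no match of these letters.

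Genes whose pattern over the 3 arrays was nearest to a member were taken from 10498 named genes measured above background throughout. Likeness was the Euclidean distance between log2 signals centred on each gene's mean over the 3 arrays. For Irf1 the nearest were Gbp7 (0.342), Tnfsf10 (0.370), and Tgtp2 (0.416), and 0 genes lay within 0.25. For Irf8 they were Insl6 (0.034), Parp8 (0.111), and Trim30b (0.120), with 21 genes within 0.25, and for Irf2 Tigd2 (0.021), Pcmtd1 (0.033), and Zfp287 (0.049), with 100 genes. A pattern over 3 arrays is a short one, and nothing is said of shared control.

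Most ligands, receptors, and kinases upstream of the IRFs were inside 2-fold, as were most of all genes tested. Of all genes, 6.57% were called higher in Triple than with IFN-g+IL-10RB and 7.47% higher than with CpG. In CpG over IFN-g+IL-10RB, 5.06% of all genes were called higher and 5.84% lower. Of 11 listed ligands, receptors, and JAKs measured, 2 of 8 tested were called higher in Triple than with IFN-g+IL-10RB and 2 of 9 higher than with CpG, and 0 of 8 were called in CpG over IFN-g+IL-10RB. Ifnb1, which encodes interferon-beta, had 173 in Triple and was not well above background with CpG (24.5) or IFN-g+IL-10RB (13.5), at least 7.35-fold and at least 6.64-fold lower. Jak2, a kinase of the interferon-gamma receptor, had 3150 with CpG, 4952 with IFN-g+IL-10RB, and 11633 in Triple, 3.84-fold and 2.40-fold higher in Triple than on these arrays. Tlr9, the receptor for CpG, had 1473, 2566, and 1887, and Ifngr1, a chain of the interferon-gamma receptor, 13427, 13061, and 7851, neither past 2-fold.

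Of 13 kinases and adaptors measured, Ikbke and Ticam1 were called higher in Triple than with IFN-g+IL-10RB, Ikbke higher and Tmem173 lower with CpG than with IFN-g+IL-10RB, and Tmem173 higher in Triple than with CpG. Ikbke, a kinase of IRF3 and IRF7, had 2499 with CpG, 816 with IFN-g+IL-10RB, and 4215 in Triple, 5.28-fold higher in Triple than with IFN-g+IL-10RB. Tmem173, the array's name for STING, an adaptor for cytosolic DNA, had 10639, 60139, and 29538, and was 5.75-fold lower with CpG than with IFN-g+IL-10RB. Ticam1, the adaptor TRIF, had 2877, 1876, and 4575. Tbk1, which phosphorylates IRF3, had 3231, 3254, and 4259, inside 2-fold throughout.

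DNA-binding partners of the members were also measured. Batf2, a partner of IRF1, had 1902 with CpG, 48176 with IFN-g+IL-10RB, and 59910 in Triple, with CpG low as for Irf1, and was 25.8-fold lower with CpG than with IFN-g+IL-10RB. Batf, a partner of IRF4 and IRF8, had 8616, 1641, and 19734, low with IFN-g+IL-10RB instead, and was 12.3-fold higher in Triple than there. Spib, a relative of PU.1, had 101 with CpG and 55.7 in Triple and was not well above background with IFN-g+IL-10RB (6.83).

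Genes linked to the members, as targets or in other ways, were counted by list, and no test compared the lists. Of 15 targets of IRF1 and IRF8 tested, 12 were called lower and 1 higher with CpG than with IFN-g+IL-10RB, with a median log2 fold of −2.06 over the 14 measured on both arrays. In Triple over CpG 14 of 15 were called higher and 0 lower, with a median of 3.26 over 15 genes, whereas the median over all genes was −0.05. In Triple over IFN-g+IL-10RB, 5 were called higher and 1 lower. Cxcl9, a chemokine, had 38.6 with CpG, 14431 with IFN-g+IL-10RB, and 230855 in Triple, 380-fold lower with CpG and 16.3-fold higher in Triple than with IFN-g+IL-10RB. Cxcl10, another chemokine, had 2738, 142968, and 277273. Nos2, the inducible nitric oxide synthase, had 155, 448, and 72449, so it was high in Triple alone. It was 165-fold higher in Triple than with IFN-g+IL-10RB. The log2 fold of Irf1 between these arrays was −0.07 for its brighter probe and 0.43 for its other probe under the scaling used. A part of Irf1 in the Nos2 difference was not tested. Il12b, the p40 subunit of IL-12, had 71.8 with CpG, was not well above background with IFN-g+IL-10RB (6.85), and had 8242 in Triple, 119-fold higher than with CpG.

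Of 19 targets of ISGF3, IRF3, and IRF7, 10 were called lower and 0 higher with CpG than with IFN-g+IL-10RB (median log2 fold −1.13), and 12 were called higher and 0 lower in Triple than with CpG (median 1.06). In Triple over IFN-g+IL-10RB 0 were called higher and 1, Ifit3, lower (median 0.10). Mx1, an antiviral GTPase, had 3616 with CpG, 20612 with IFN-g+IL-10RB, and 21591 in Triple, 5.80-fold lower with CpG than with IFN-g+IL-10RB. Ifit2 had 2973, 18236, and 12996, Rsad2, which encodes viperin, 5547, 28088, and 23745, and Ifi44 3209, 14339, and 15502. These named genes were low with CpG. The log2 folds of Irf9 and Irf3 were within 1.15 technical SD under the scaling used. Activity of these factors was not measured, and their part in these genes was not tested.

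All 6 IRF5-linked cytokines tested were called higher in Triple than with either other condition, and 5 of 6 were called higher with CpG than with IFN-g+IL-10RB. Il1b had 1445 with CpG and 30090 in Triple and was not well above background with IFN-g+IL-10RB (25.5), at least 1153-fold lower than in Triple. Il6 had 319 and 24279 and was not well above background with IFN-g+IL-10RB (6.52). Ccl3, a chemokine, had 38880, 5829, and 91428. These 6 genes were lowest with IFN-g+IL-10RB. The RNA signal of Irf5 was lowest with CpG. Activity of IRF5 was not measured, and its part in these genes was not tested. Il12b is in this list and among the targets of IRF1 and IRF8, and is counted in both. Among IRF4-linked genes, Mrc1, the mannose receptor, had 5910 with CpG, 3274 with IFN-g+IL-10RB, and 76.4 in Triple, 41.9-fold lower in Triple than with IFN-g+IL-10RB. Kdm6b, a histone demethylase, had 261, 159, and 1087, and Chi3l3 91.2, 89.4, and 72.2.

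**Figure D4:**
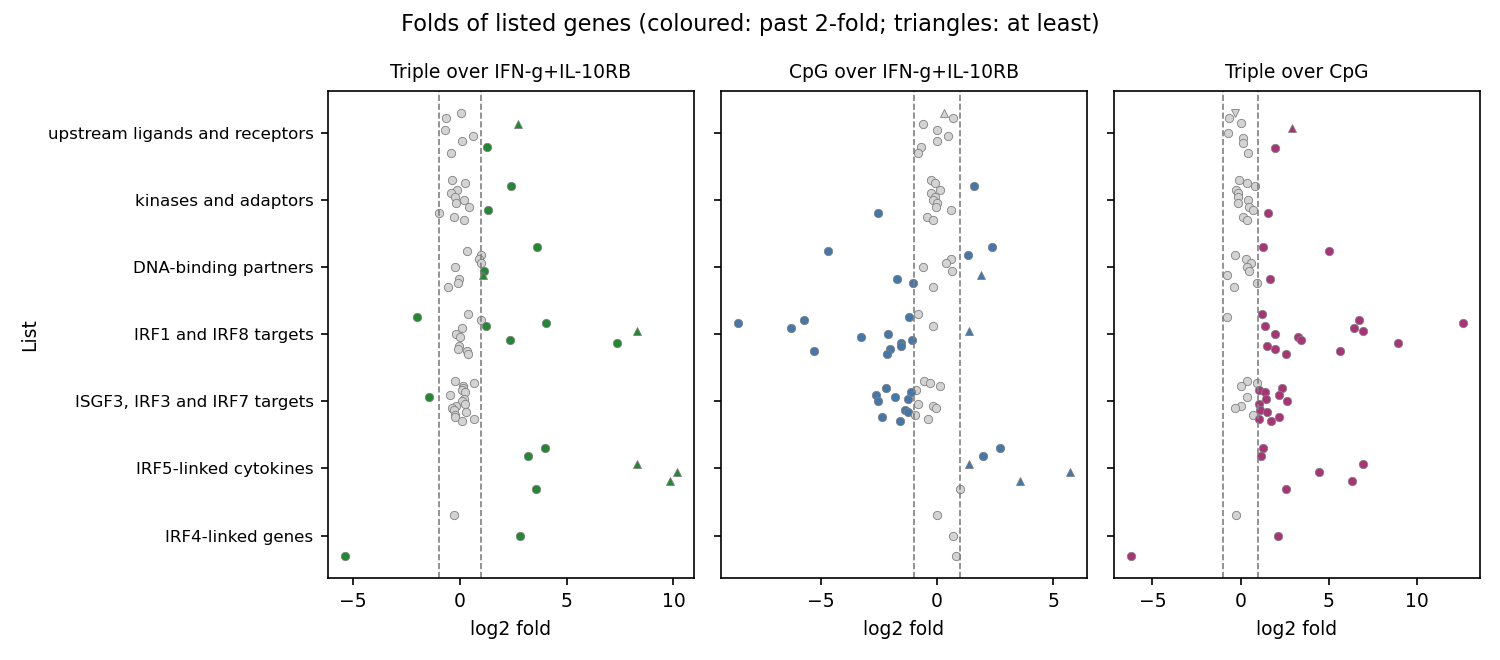
Log2 folds of the listed genes in the 3 comparisons, 1 row per list, with dashed lines at 2-fold; coloured points were called, grey points were not, and triangles are bounds. In Triple over CpG 38 of 75 genes tested were called higher and 1 lower (all genes 7.47% and 8.34%), in CpG over IFN-g+IL-10RB 9 and 26 of 74 (5.06% and 5.84%), and in Triple over IFN-g+IL-10RB 18 and 3 of 74 (6.57% and 9.31%).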

How the data were processed

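The authors deposited, for each array, Agilent Feature Extraction 10.10.1.1 output, whose processed signal is an intensity after subtraction of a fitted background, not scaled between arrays. They also deposited a table of log2 values, each column being the log2 processed signal minus a constant that corresponded to a signal of 368 for CpG, 373 for IFN-g+IL-10RB, and 338 for Triple. The column medians were −4.26, −4.38, and −4.27. Control spots and spots with any of the outlier marks for the spot or its local background were left out, as planned, which left 52752 probes and 33597 genes. This removed the only spot of Irf5 (marked for its local background on all 3 arrays), and among listed genes and markers Tyk2, Traf3, Rela, Lyz2, and Cpa3. The processed signal uses the fitted background, equal at all spots to the background used. Using the marks of the spot alone, an alternative chosen after seeing that Irf5 was lost, keeps Irf5, but the planned filter was kept for all counts. Values of Irf5 are those with outlier spots kept.

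Log2 signals were scaled by the 75th percentile of each array, taken over 21233 probes that passed the background mark everywhere, since on average 44.2% of probes were. A gene was its probe with the highest mean. Members and lists were chosen with earlier results of these data known. From each of 7 lists the 4 genes with the widest range over the arrays, if well above background on any, were named. Some of the genes so named, and some markers and list counts, are not reported here. Of 29150 RefSeq accessions on the array, 27509 matched RefSeq gene records. Promoters were those of GRCm38.p6. Columns of values left unmapped were 0. The array name of Spi1 is Sfpi1. All 3 arrays lay on 1 slide with 1 scan time. With 1 array per condition no test was possible, and the number of arrays limits the precision. Alternatives included normexp (offset 50, limma 3.58.1, R 4.3.3). Python 3.11.15, numpy 2.4.6, pandas 2.3.3, and matplotlib 3.10.9 were used.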

Additional observations from a re-analysis of the deposited data

How the results depend on the processing

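Each condition had 1 array, so neither a paired analysis nor leaving out a replicate was possible. There were 15 other settings listed at the start and 1 added for the counts. Using only the marks of the spot itself as outlier marks, and the alternatives for Irf5 with outlier spots kept, were chosen after seeing the data. Beyond what a setting changes by construction, the cause was not tested. Of 317 values of 23 member folds under the alternatives, 303 lay within the technical SD of the reported fold and 14 did not. Settings on probe choice, outlier spots, or dim signals could hardly move the fold of a gene with a single bright probe, so this count is no measure of stability. Among folds past 2-fold, 0 changed sign. Irf1 and Irf8 stayed past 2-fold in CpG over IFN-g+IL-10RB and in Triple over CpG under the reported setting and each of 14 others at a threshold of 2-fold, and so did Irf2 in CpG over IFN-g+IL-10RB. Irf4 was called lower in Triple than with IFN-g+IL-10RB (1 member in place of 0) under spike-in scaling, relative to Actb, without the background filter and the lower limit, and at 1.5-fold. It was called lower in Triple than with CpG (1 in place of 0) without both the background filter and the lower limit. Its log2 fold of Triple over IFN-g+IL-10RB ranged from −2.78 to −0.24. At 1.5-fold, 5 members were lower with CpG than with IFN-g+IL-10RB and 4 higher in Triple than with CpG, where 2347 and 2619 of all genes were called, in place of 1068 and 1370 at 2-fold. For the listed genes, 1.5-fold gave 6 lower in Triple and 16 higher with CpG than with IFN-g+IL-10RB, and 5 lower in Triple than with CpG. A 3-fold threshold left 2 members lower with CpG than with IFN-g+IL-10RB, without Irf2, and for the listed genes gave 17 lower with CpG than with IFN-g+IL-10RB and 24 higher in Triple than with CpG. Well above background in both arrays gave 5 higher with CpG than with IFN-g+IL-10RB. In Triple over IFN-g+IL-10RB the median log2 fold of all genes moved by 0.11 when every probe entered the 75th percentile and by −0.15 with spike-in scaling, where 5 of 10 probes could be used. All genes called there were 1410 higher and 1455 lower with the former and 991 and 2047 with the latter, in place of 1187 and 1681. They were 806 and 1100 with normexp and 2522 and 3088 without both the background filter and the lower limit, so the shares of all genes depend on the setting. Signal over background limits the values of Irf4.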
